A study of Mus musculus with 48 samples.

Results

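The CXCR3 axis is a set of 4 genes, the receptor gene Cxcr3 and the genes of its interferon-inducible ligands Cxcl9, Cxcl10 and Cxcl11. They were picked by name out of 55450 genes measured in 48 mouse tumors, because Cxcl9 stood out among the named genes when untreated tumors of iNOS KO and WT mice were compared on day 7. That comparison is therefore given as values with no test, and the tests of differences below compare other groups of tumors. The untreated tumors of day 7 still entered the scaling, the filter on low counts and the estimate of spread in the day 7 tests.

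The tumors grew from B16-D5 cells, a subclone of the B16 mouse melanoma line, injected under the skin of C57BL/6J mice (WT) or of mice that lack the inducible nitric oxide synthase (iNOS KO). Mice arrived at 4 weeks of age, were housed for 2 weeks, and received the cells 8 days before the first dose of antibody. Doses of 250 µg in 200 µL were given on days 0 and 3. RNA was sequenced from 3 tumors, each from a separate mouse, in each of 16 groups. The first experiment used WT hosts only and holds untreated tumors at 0 h, and untreated, IgG-treated and anti-PD-1-treated tumors at 6 h, day 1 and day 3. The second experiment holds untreated, IgG-treated and anti-PD-1-treated tumors of WT and of iNOS KO hosts on day 7, a time that the study's methods give and the sample titles do not. IgG was the control antibody, and anti-PD-1 blocks the inhibitory receptor PD-1 on T cells. The injected melanoma cells did not come from iNOS KO mice, so only the host cells of a tumor lack iNOS in the KO groups. Treatment, host and time were read from the sample titles where these give them. The titles of the tumors called 6 h here name the day of the first dose and no hour. Thus 6 h, like day 7, was not read from the titles. The labels' treatment field matched the assigned groups in 14 of 48 samples, the genotype field in 39 and the time field in 11. The count for the time field is therefore not a comparison with the titles alone.

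CXCR3 is a G protein-coupled chemokine receptor carried mainly by activated T cells and NK cells, which it directs along gradients of its ligands. The ligands are induced by interferon-γ, with IRF1 among the factors in between, and Cxcl10 also by type I interferons and NF-κB. In tumors they are known as the chemokines that draw effector T cells in, with macrophages, dendritic cells, stromal cells and tumor cells as their sources. C57BL/6 mice are known to carry a null allele of Cxcl11, so its RNA there does not report a working chemokine, and GENCODE lists the gene as a polymorphic pseudogene.

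In mm10 with GENCODE vM21, the 3 ligand genes lie side by side on the minus strand of chromosome 5. Cxcl9 (ENSMUSG00000029417.9) spans chr5:92321347-92328079, Cxcl10 (ENSMUSG00000034855.13) chr5:92346638-92348889 and Cxcl11 (ENSMUSG00000060183.6) chr5:92359544-92365485. Art3 on the plus strand, at chr5:92331827-92414628, contains both Cxcl10 and Cxcl11, and the strand used in counting was not stated, so reads of these overlapping genes could have been split. Cxcr3 (ENSMUSG00000050232.6) lies on the minus strand at chrX:101731535-101734269. RefSeq promoters of GRCm38.p6 were matched by symbol for 3 members, Cxcl9, Cxcl10 and Cxcr3, and not for Cxcl11. Windows of 250 bases before the RefSeq start are printed for Cxcl9 (chr5:92328080-92328329, minus strand) and Cxcl10 (chr5:92348890-92349139, minus strand), because these are the 2 abundant ligands that the values below set side by side. Capitals mark matches to the searched motifs, and the sequences run 5′ to 3′ on the strand of the gene.
Cxcl9: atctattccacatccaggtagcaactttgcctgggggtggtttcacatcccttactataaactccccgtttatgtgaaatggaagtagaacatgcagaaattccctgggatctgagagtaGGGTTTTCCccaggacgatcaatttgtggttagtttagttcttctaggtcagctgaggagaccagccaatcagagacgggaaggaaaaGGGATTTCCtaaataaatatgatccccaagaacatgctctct
Cxcl10: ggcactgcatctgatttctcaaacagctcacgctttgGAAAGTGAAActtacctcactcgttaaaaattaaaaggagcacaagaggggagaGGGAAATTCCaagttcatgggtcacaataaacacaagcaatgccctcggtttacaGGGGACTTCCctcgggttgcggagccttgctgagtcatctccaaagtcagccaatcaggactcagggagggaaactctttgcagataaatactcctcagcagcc

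The motifs were searched on both strands. The core of the interferon-stimulated response element (ISRE), which interferon regulatory factors bind, was written as GAAA and GAAA with any 2 bases between them and occurs in 2.98% of 32851 RefSeq promoter windows of this length. The gamma-activated site (GAS), an element of interferon-γ responses, was written as TTCNNNGAA and occurs in 7.02%. The κB site, which NF-κB binds, was written as GGG and TTCC with any 2 or 3 bases between them and occurs in 8.26%. With the base before the start counted as -1, the Cxcl10 window holds 1 ISRE match at -213 to -204 and κB matches at -159 to -150 and -104 to -95, where the shorter form of the motif also matches from -103. The Cxcl9 window holds κB matches at -130 to -122 and -42 to -34. The GAS letters are in neither window, and none of the 3 motifs is in the window of Cxcr3. A match describes letters only.

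Libraries held 25574203 to 47687872 counts on genes in the first experiment and 11625862 to 40959309 in the second. Levels are given as CPM, the counts of a gene for each 1000000 counts of its library, scaled by the trimmed mean of M-values (TMM) within each experiment, so the experiments are not compared with each other. In bulk tumor RNA, fewer cells of a type and less RNA per cell cannot be told apart. The 8 melanoma markers on the list used here were present in every group, with sums of 9396 to 20660 CPM over the 48 tumors. Nos2, which encodes iNOS, did not separate the hosts, with 1.40 to 7.28 CPM in the 9 WT tumors of the second experiment and 1.15 to 5.92 CPM in the 9 iNOS KO tumors. The injected cells carry the intact gene and counts over the whole gene do not check a deletion, so the genotype rests on the titles. In the second experiment 3 libraries stood apart by their counts on sensory receptor genes (those of olfactory, vomeronasal and taste receptors), which tumors are not known to use. These were anti-PD-1 tumors no. 3 (3710 CPM) and no. 4 (1304 CPM) of WT hosts and untreated tumor no. 1 of an iNOS KO host (916 CPM), against 12.3 to 232 CPM in the others of that experiment. For the members, fold changes that rest on them are also given without them where stated. Correlations and values of other genes were not recomputed without them.

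All 4 members passed the filter on low counts in both experiments. Over the 48 tumors the counts of Cxcl9 ran from 116 to 14547, those of Cxcl10 from 1266 to 34782, those of Cxcl11 from 22 to 440 and those of Cxcr3 from 9 to 247. Per kilobase of exon, Cxcl10 was the most abundant member. In the first experiment its median level was 83.5 CPM per kb, against 10.8 for Cxcl9, 1.58 for Cxcr3 and 0.481 for Cxcl11, and in the second the medians were 56.6, 2.93, 1.31 and 0.649 CPM per kb. The level of Cxcl10 per kb exceeded that of Cxcl9 in 30 of 30 and 18 of 18 tumors, but the ratio was far from fixed, between 2.37 and 83.4 in the first experiment and between 4.19 and 61.3 in the second. In the first experiment the ratio was lowest in IgG tumor no. 4 of day 1, which had the most Cxcl9 (352 CPM), and highest in untreated tumor no. 2 of 6 h, which had the least (3.22 CPM). In the second it was lowest in untreated KO tumor no. 4, with the most Cxcl9 (104 CPM), and highest in untreated WT tumor no. 1, with the least (3.05 CPM). The ratio of Cxcl10 to Cxcl11 per kb lay between 37.4 and 326 in the first experiment and between 44.7 and 355 in the second.

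Cxcl9 was among the most variable genes of the first experiment. Its CPM differed 109-fold between the lowest and the highest of the 30 tumors of the first experiment and 34.2-fold over the 18 of the second, where both extremes were untreated tumors used to choose the genes. In the first experiment most of the spread lay between tumors of one group, with a standard deviation within groups of 1.63 on the log2(CPM + 0.5) scale, against 1.68 over all tumors. The value within groups was larger than in 99.2% of 13224 genes of similar detection (mean of at least 1 CPM). For Cxcl10 the range was 24.2-fold, for Cxcl11 16.5-fold and for Cxcr3 31.9-fold in the first experiment. In the second experiment Cxcl10 ranged over 4.69-fold, Cxcl11 over 11.8-fold and Cxcr3 over 2.3-fold, and the spread of Cxcr3 within groups was larger than in only 30.2% of 13545 genes. When the groups were put in the order of their mean, neighbours overlapped in their tumors for every member in both experiments.

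**Figure D1:**
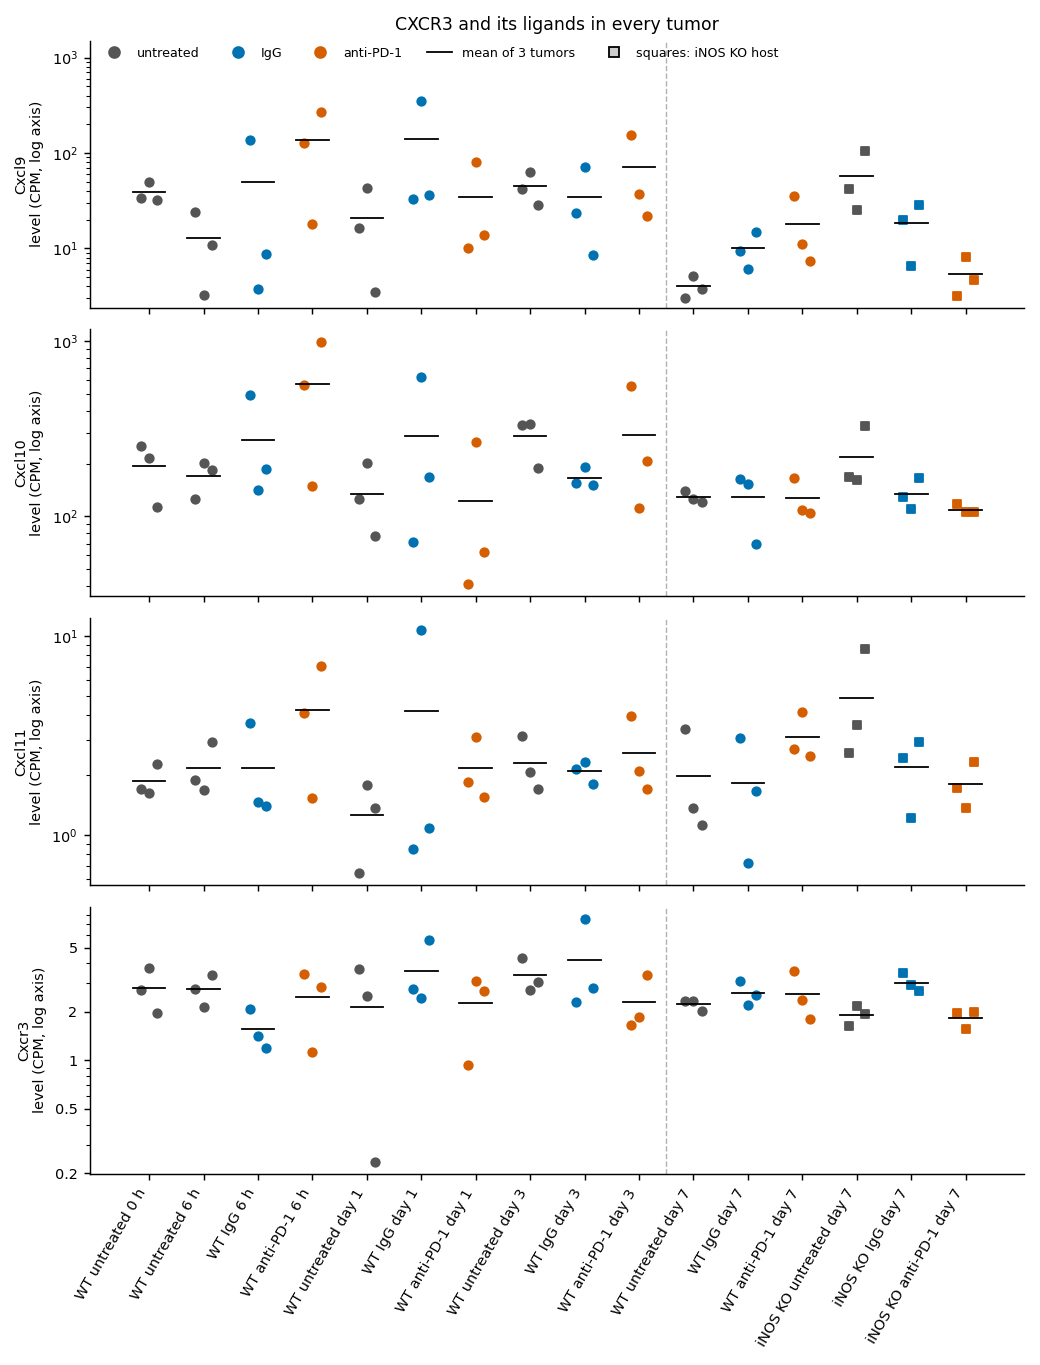
CPM (log axis) of Cxcl9, Cxcl10, Cxcl11 and Cxcr3 in the 16 groups, with a point for each tumor and a bar for the mean of 3. In Cxcl9 single tumors stand far above the others of their group, such as IgG day 1 no. 4 at 352 CPM, whereas Cxcr3 stays between 1.56 and 3.58 CPM throughout the second experiment.

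In the first experiment the same few tumors had the highest levels of all 3 ligands. Among anti-PD-1 tumors at 6 h, Cxcl9 reached 129, 18 and 267 CPM in nos. 1, 3 and 5. Among IgG tumors at that time it was 135, 3.78 and 8.74 CPM in nos. 1, 2 and 6, and among untreated tumors 24.2, 3.22 and 10.8 CPM in nos. 1, 2 and 4. Thus 2 of the 3 anti-PD-1 tumors and 1 IgG tumor were high, and the ranges of all 3 groups overlapped. At 0 h the untreated tumors were alike, with 33.7, 49.9 and 32.4 CPM.

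On day 1 the highest value of the first experiment appeared under IgG. Cxcl9 was at 32.9, 352 and 36.1 CPM in IgG tumors nos. 2, 4 and 6, at 10.1, 80.0 and 14 CPM in anti-PD-1 tumors nos. 2, 4 and 5, and at 16.3, 42.9 and 3.51 CPM in untreated tumors nos. 1, 3 and 6. On day 3 it was at 155, 37.6 and 22 CPM in anti-PD-1 tumors nos. 3, 4 and 5, at 23.7, 71.9 and 8.59 CPM in IgG tumors nos. 2, 3 and 5, and at 41.9, 64.0 and 28.5 CPM in untreated tumors nos. 1, 2 and 4. On both days a single tumor set the highest group mean, and the groups overlapped.

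Cxcl10 was high in the same individual tumors. At 6 h it was at 565, 149.7 and 994 CPM under anti-PD-1, at 494, 141 and 186 CPM under IgG and at 125, 201 and 183 CPM in the untreated ones, in the order of numbers above. On day 1 IgG tumor no. 4 had 623 CPM, against 71.6 and 168 CPM in the other IgG tumors, 41.1 to 265 CPM under anti-PD-1 and 77.7 to 201 CPM without treatment. On day 3 anti-PD-1 tumor no. 3 had 553 CPM, against 111 and 208 CPM in the other anti-PD-1 tumors, 150.5 to 193 CPM under IgG and 190.0 to 336 CPM without treatment. Cxcl11 gave its highest values in these tumors as well, with 7.09 CPM in anti-PD-1 tumor no. 5 at 6 h and 10.7 CPM in IgG tumor no. 4 of day 1, against 0.647 to 4.09 CPM in the other tumors of the experiment.

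The receptor did not follow this order. Cxcr3 was highest in IgG tumors no. 3 of day 3 (7.52 CPM) and no. 6 of day 1 (5.55 CPM), and IgG tumor no. 4 of day 1 had 2.42 CPM. Its lowest level, 0.236 CPM from 9 counts, was in untreated tumor no. 6 of day 1. At 6 h the 3 IgG tumors (2.08, 1.41 and 1.19 CPM) all lay below the 3 untreated tumors (2.76, 2.14 and 3.37 CPM), a separation that 2.31% of the 26848 genes tested showed in that direction, with a log2 fold change of -0.82 (SE 0.65). This was the only separation of groups for a member in the 8 comparisons between single groups of the first experiment. As background, the share of all genes that separated in either direction was 7.7%, 6.49% and 8.32% for anti-PD-1 against IgG at 6 h, day 1 and day 3, and 8.19%, 12.6% and 11.2% for IgG against untreated tumors at these times. It was 5.61% for anti-PD-1 against untreated tumors at 6 h and 7.72% for untreated tumors of day 3 against 0 h.

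No member passed an adjusted p of 0.05 in the edgeR quasi-likelihood test in any of 9 comparisons of the first experiment (0 of 36 tests, where all genes gave 0% called in each comparison). DESeq2 called 0 of the 36 as well, and 4 had an unadjusted p under 0.05, which 2.14% to 6.89% of all genes had in these comparisons. Against untreated tumors at 6 h, anti-PD-1 tumors had a log2 fold change of 3.44 (SE 1.28, unadjusted p = 0.0125, adjusted p = 1 in edgeR) for Cxcl9 and 1.75 (SE 0.73, unadjusted p = 0.0251, adjusted p = 1 in edgeR) for Cxcl10, in a comparison where 3.30% of all genes reached an unadjusted p under 0.05. For Cxcl11 the value was 0.97 (SE 0.69) and for Cxcr3 -0.16 (SE 0.64). Over the alternative settings the adjusted p of Cxcl9 ran from 0.0207 to 1, and the lowest came from the edgeR fit without a filter, which called 0.152% of 49294 genes. Without tumor no. 5 the log2 fold change was 2.50 for Cxcl9 and 1.09 for Cxcl10.

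Against IgG at 6 h, no member was called in the edgeR test (adjusted p = 1 for each member). The values were 1.48 (SE 1.18) for Cxcl9, 1.06 (SE 0.72) for Cxcl10, 0.96 (SE 0.69) for Cxcl11 and 0.66 (SE 0.65) for Cxcr3. Their unadjusted p in edgeR lay between 0.154 (Cxcl10) and 0.315 (Cxcr3). On day 1 the sign was the opposite, with -2.02 (SE 1.20), -1.23 (SE 0.72), -0.95 (SE 0.69) and -0.66 (SE 0.64) in the same order. On day 3 Cxcl9 had 1.04 (SE 1.17), Cxcl10 0.81 (SE 0.72), Cxcl11 0.31 (SE 0.69) and Cxcr3 -0.87 (SE 0.64). Averaged over the 3 times, the log2 fold change of anti-PD-1 against IgG was 0.17 (SE 0.67) for Cxcl9, 0.21 (SE 0.41) for Cxcl10, 0.11 (SE 0.39) for Cxcl11 and -0.29 (SE 0.37) for Cxcr3.

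The control antibody was also set against untreated tumors. On day 1 IgG against untreated tumors gave 2.75 (SE 1.24, unadjusted p = 0.0356, adjusted p = 0.859 in edgeR) for Cxcl9 and 1.73 (SE 0.70, unadjusted p = 0.0213, adjusted p = 0.859 in edgeR) for Cxcl11, where 5.43% of all genes reached an unadjusted p under 0.05. Without IgG tumor no. 4 these values became 0.78 and -0.36. Cxcl10 had 1.10 (SE 0.72) and -0.13 without that tumor, and Cxcr3 had 0.74 (SE 0.64). At 6 h IgG against untreated tumors gave 1.95 (SE 1.21) for Cxcl9, which became -1.13 without IgG tumor no. 1. On day 3 the value for Cxcl9 was -0.37 (SE 1.16), and untreated tumors of day 3 against 0 h gave 0.21 (SE 1.16). The comparisons of anti-PD-1 and of IgG with untreated tumors share the same untreated tumors.

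**Figure D2:**
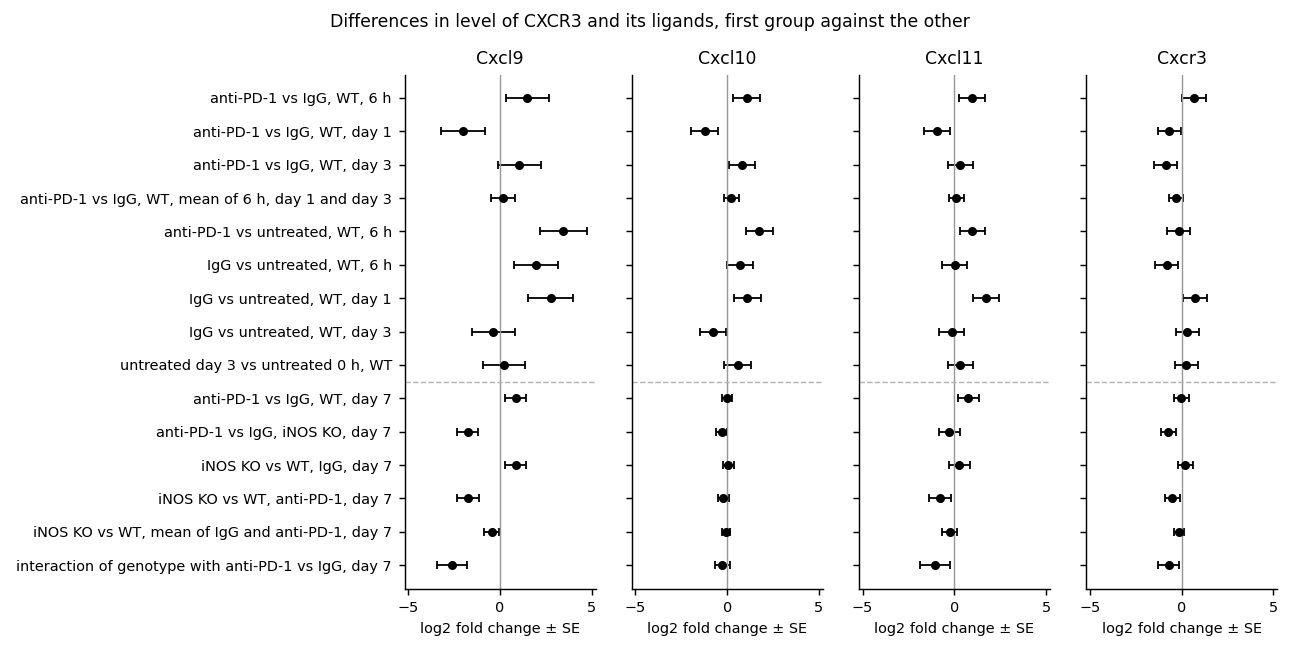
Log2 fold change with its standard error for each member in the 15 comparisons tested with edgeR, drawn as a point and a horizontal bar. The ligands lie at the extremes, Cxcl9 at 3.44 for anti-PD-1 against untreated tumors at 6 h and at -2.62 for the interaction on day 7, while every value of Cxcr3 lies between -0.87 and 0.74.

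In the second experiment the ligands of untreated tumors differed by host, which is how the members came to be chosen. Cxcl9 was at 41.7, 25.2 and 104 CPM in iNOS KO tumors nos. 1, 2 and 4, and at 3.05, 5.19 and 3.76 CPM in WT tumors nos. 1, 2 and 3, so every KO tumor lay above every WT tumor. Cxcl10 was at 168, 161 and 326 CPM against 139.8, 126 and 120.3 CPM, also without overlap. As background, 9.73% of the 30837 genes tested were higher in all 3 KO tumors, and nothing is read from the count. Cxcl11, at 2.57, 3.56 and 8.57 CPM against 3.42, 1.37 and 1.13 CPM, overlapped, as did Cxcr3, at 1.63, 2.17 and 1.93 CPM against 2.34, 2.34 and 2.02 CPM. The log2 fold changes were 3.84 for Cxcl9, 0.76 for Cxcl10, 1.31 for Cxcl11 and -0.23 for Cxcr3, beside a median of 0.49 over all genes. Without KO tumor no. 4, the highest for all 3 ligands, they were 3.04 for Cxcl9, 0.34 for Cxcl10 and 0.62 for Cxcl11. The summed CPM of the 12 T cell markers was 11.6 to 24.6 in these KO tumors and 3.84 to 8.98 in the WT tumors. Adipocyte markers were also higher without overlap, with sums of 35.9 to 88.6 against 15 to 30.1 CPM, while fibroblast markers (637 to 865 against 876 to 3974 CPM) and endothelial markers (179.8 to 219 against 219.9 to 242 CPM) were lower. Their part in the result was not tested. KO tumor no. 1 is one of the 3 libraries that stood apart. Without these 3 libraries the log2 fold changes were 4.02 for Cxcl9, 0.92 for Cxcl10, 1.62 for Cxcl11 and -0.13 for Cxcr3.

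Under either antibody the mean of Cxcl9 in KO tumors was below that of untreated KO tumors. It was at 19.7, 6.48 and 28.9 CPM in IgG-treated KO tumors nos. 1, 2 and 3 and at 3.21, 8.21 and 4.72 CPM in anti-PD-1-treated KO tumors nos. 1, 2 and 3. In WT hosts it was at 9.44, 6.17 and 14.8 CPM in IgG tumors nos. 1, 2 and 3 and at 35.6, 11.2 and 7.46 CPM in anti-PD-1 tumors nos. 2, 3 and 4. The untreated group was thus the highest of the KO hosts and the lowest of the WT hosts, a description that rests in part on the tumors used to choose the genes.

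No member passed an adjusted p of 0.05 with edgeR in the 6 tested comparisons of day 7 (0 of 24 tests), 3 had an unadjusted p under 0.05 (all genes 1.94% to 32.8%), and DESeq2 called 1. Over all genes edgeR called 0% in 5 of these comparisons and 0.0746% in iNOS KO against WT over the mean of both antibodies. For anti-PD-1 against IgG in WT hosts, DESeq2 gave an adjusted p for only 2140 genes. Cxcl9, Cxcl11 and Cxcr3 were not among them and could not be called by DESeq2 there. In KO hosts, anti-PD-1 against IgG gave -1.77 (SE 0.59, unadjusted p = 0.00710, adjusted p = 1 in edgeR) for Cxcl9, where 1.94% of all genes reached an unadjusted p under 0.05. The groups overlapped, since KO tumor no. 2 under anti-PD-1 had more Cxcl9 than KO tumor no. 2 under IgG. The adjusted p ran from 5.56e-08 to 1 over the alternative settings, and the lowest came from the fit without a filter, which called 0.152% of 51257 genes. Beside this value, 10 of the 12 T cell markers had lower means under anti-PD-1 (median log2 fold change -1.18, 0 called by edgeR and 4 at an unadjusted p under 0.05), with sums of 4.79 to 8.94 CPM against 6.49 to 17.5 CPM under IgG. Their part in the result was not tested.

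In WT hosts anti-PD-1 against IgG gave 0.85 (SE 0.58, adjusted p = 0.396 in edgeR) for Cxcl9, -0.023 (SE 0.29) for Cxcl10, 0.76 (SE 0.59) for Cxcl11 and -0.016 (SE 0.40) for Cxcr3, with a median of 0.68 over all genes. The value of Cxcl9 became -0.14 without anti-PD-1 tumor no. 2. Without the 3 libraries that stood apart, Cxcl10 had 0.35, Cxcr3 0.44, Cxcl9 1.82 and Cxcl11 0.55, each then resting on 1 anti-PD-1 tumor, no. 2, whose spread was assumed to be that of the other groups.

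Between hosts under anti-PD-1, iNOS KO against WT gave -1.76 (SE 0.59, unadjusted p = 0.00747, adjusted p = 0.129 in edgeR) for Cxcl9. Of all genes 32.3% reached an unadjusted p under 0.05 here and the median over all genes was -0.91. The DESeq2 Wald test gave -1.80 with an adjusted p of 0.0439, in a comparison where it called 11.7% of 26027 genes, and edgeR without a filter gave -1.68 with an adjusted p of 5.13e-08 and 5.52% of 51257 genes called. Without WT tumor no. 2, the one WT tumor with 35.6 CPM, the log2 fold change was -0.74, while edgeR then called 4959 genes, Cxcl9 not among them. Without the 3 libraries that stood apart, where WT tumor no. 2 was left alone in its group, it was -2.69. Over the alternative settings the adjusted p ran from 5.13e-08 to 1. The marker values that follow include WT tumors nos. 3 and 4, which stood apart, and were not corrected for their background. T cell markers had lower means in KO tumors for 12 of 12 genes (median -2.51, 0 called by edgeR and 7 at an unadjusted p under 0.05), with sums of 4.79 to 8.94 CPM against 21.5 to 46.2 CPM, and NK cell markers for 9 of 9 (median -3.24, 0 called and 7 likewise), with Klre1 at 0 in all 3 KO tumors. Their part in the result was not tested.

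Cxcl11 was the only member whose tumors separated in that comparison, at 1.72, 1.37 and 2.33 CPM in KO tumors against 2.7, 4.13 and 2.49 CPM in WT tumors. Of all genes 17% separated in that direction. The separation rested on the libraries that stood apart, since a background estimated from the sensory receptor genes came to 47.2% of the Cxcl11 counts in WT tumor no. 3 and 32.5% in no. 4. After its subtraction these tumors had 2.18 and 1.68 CPM and the groups overlapped. The background came to 37.7% and 20.3% of the Cxcr3 counts in the same libraries, but to 13.8% and 8.61% for Cxcl9 and 1.06% and 0.459% for Cxcl10, the more abundant genes.

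For Cxcr3, anti-PD-1-treated KO tumors (1.96, 1.56 and 2.00 CPM) all lay below IgG-treated KO tumors (3.47, 2.95 and 2.67 CPM). Of all genes 3.77% separated in that direction, and the log2 fold change was -0.72 (SE 0.40, unadjusted p = 0.0871, adjusted p = 1 in edgeR). Leaving out each tumor in turn kept it between -0.80 and -0.61. Beside it, 9 of 9 NK cell markers had lower means under anti-PD-1 (median log2 fold change -1.67, 0 called by edgeR and 1 at an unadjusted p under 0.05), and their sums did not overlap, with 1.56 to 4.07 CPM against 5.85 to 8.5 CPM under IgG. Their part in the result was not tested. Under IgG, KO against WT gave 0.21 (SE 0.40) for Cxcr3 and 0.86 (SE 0.58) for Cxcl9, and the groups overlapped for all members, where 12.1% of all genes separated in either direction. For anti-PD-1 against IgG in WT hosts they overlapped too, beside 11.9% of all genes. Over the mean of both antibodies, KO against WT gave -0.45 (SE 0.41) for Cxcl9, -0.072 (SE 0.20) for Cxcl10, -0.25 (SE 0.41) for Cxcl11 and -0.14 (SE 0.28) for Cxcr3. The median over all genes was -0.56. Without the 3 libraries that stood apart the members had -0.89, -0.24, -0.12 and -0.34 in the same order.

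The interaction asks whether anti-PD-1 against IgG differed between hosts. For Cxcl9 it was -2.62 (SE 0.82, unadjusted p = 0.00475, adjusted p = 0.670 in edgeR), in a comparison where 7.42% of all genes reached an unadjusted p under 0.05 and the median was -0.47. It became -1.63 without WT anti-PD-1 tumor no. 2 and -3.60 without the 3 libraries, where that tumor was left alone in its group. The adjusted p ran from 5.66e-09 to 1 over the alternative settings, the lowest in the fit without a filter, which called 0.527% of 51257 genes. For Cxcl10, the most abundant ligand, the interaction was -0.28 (SE 0.41), for Cxcl11 -1.04 (SE 0.83) and for Cxcr3 -0.70 (SE 0.57). Without the 3 libraries these values were -0.66, -0.84 and -1.17 in the same order.

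The inducers of the ligands were followed as a list of 11 genes of the interferon-γ and NF-κB routes. With edgeR, 0 of the 11 were called in any of the 15 comparisons. Ifng, the interferon-γ gene, had 0 counts in 18 tumors, which allows up to 0.105 CPM in the shallowest of them. Its highest levels were 6.95 CPM in IgG tumor no. 4 of day 1, 3.72 and 1.58 CPM in anti-PD-1 tumors nos. 5 and 1 at 6 h, and 2.62 CPM in anti-PD-1 tumor no. 3 of day 3. These were also the tumors with the most Cxcl9 in their groups.

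Irf1, the gene of a transcription factor between interferon-γ and the ligands, was at 114, 37.2 and 246 CPM in anti-PD-1 tumors nos. 1, 3 and 5 at 6 h and at 41.2, 23.1 and 19.7 CPM in untreated tumors nos. 1, 2 and 4. Only anti-PD-1 tumor no. 3 lay within the untreated range. The log2 fold change of Irf1 was 2.24 (SE 0.82, unadjusted p = 0.0116, adjusted p = 1 in edgeR). At an unadjusted p under 0.05, 4 of the 11 inducers were higher and 1 lower in this comparison, against 3.3% of all genes in either direction, with a list median of 0.29 against -0.016 over all genes. On day 1 IgG tumor no. 4 had 374 CPM of Irf1, and the other IgG tumors had 33.5 to 39.1 CPM.

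T cell markers had higher means in the same comparisons. Against untreated tumors at 6 h, 12 of 12 had higher means under anti-PD-1 (median 0.99, 0 called by edgeR and 0 at an unadjusted p under 0.05), with sums of 12.5 to 58.7 CPM against 12 to 35.6 CPM. For IgG against untreated tumors on day 1, 12 of 12 had higher means (median 1.52, 0 called and 0 likewise), with sums of 27.6 to 88.6 CPM against 13.2 to 30.5 CPM, the highest in tumor no. 4. None of the 12 was at 0 throughout a group. Keratinocyte and skeletal muscle markers also differed, with sums of 0.509 to 727 CPM and 3.17 to 7586 CPM in the IgG tumors of day 1, but the highest sums were in tumor no. 6 and the lowest in tumor no. 4, which had the most Cxcl9. The part of any of these cells in the results was not tested.

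Over the 30 tumors of the first experiment the ligands varied together, and the receptor less so. Correlations were computed on log2(CPM + 0.5), with two-sided permutation tests in which 1e-05 is the smallest p that can be obtained, adjusted over 100 correlations. These are the correlations of both experiments, so those over the untreated tumors of day 7 entered the adjustment. Cxcl9 correlated with Cxcl10 (r = 0.732, rho = 0.713, adjusted permutation p = 7.14e-05 and 0.0005) and with Cxcl11 (r = 0.714, rho = 0.667, adjusted permutation p = 7.14e-05 and 0.000875). Within groups, after the group means were taken out, r was 0.797 and 0.734. Without the 2 tumors farthest from the median of Cxcl10 and of Cxcl11, respectively, it was 0.690 and 0.560. Below, the 2 tumors farthest out are likewise those farthest from the median of the gene or marker mean set against the member. With Cxcr3 the r was 0.418 for Cxcl9 (adjusted permutation p = 0.0734), 0.310 for Cxcl10 (0.232) and 0.081 for Cxcl11 (0.795).

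Cxcl9 also correlated with genes of its induction. Its r was 0.905 with Irf1 (rho 0.903) and 0.828 with Ifng (rho 0.794), each with an adjusted permutation p of 7.14e-05, and 0.882 and 0.778 within groups. Without the 2 tumors farthest out, these were 0.871 and 0.758. With Irf1 the r was 0.737 for Cxcl10 and 0.801 for Cxcl11, while Cxcr3 had 0.224.

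With the mean of the 12 T cell markers, r was 0.825 for Cxcl9 (rho 0.823, 0.840 within groups, 0.809 without the 2 tumors farthest out), 0.620 for Cxcl10, 0.564 for Cxcl11 and 0.531 for Cxcr3 (rho 0.434, adjusted permutation p = 0.0101 for r and 0.0713 for rho). Cxcl9 thus had a larger r with the T cell markers than its receptor gene had, a difference that was not tested. Cxcl10 also had r = 0.577 (rho 0.667) with the 8 melanoma markers, where Cxcl9 had 0.144. With macrophage and monocyte markers Cxcl9 had 0.127 and Cxcl10 -0.317. Of the 50 correlations of this experiment 19 had an adjusted p under 0.05 for r.

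Over the 18 tumors of the second experiment correlations are a description, since 6 of these tumors entered the choice of the genes. Cxcl9 had r = 0.626 with Cxcl10 and 0.632 with Cxcl11, but 0.403 and 0.380 within groups. With Irf1 it had r = 0.916 (rho 0.825, 0.870 within groups). With the T cell markers it had r = 0.442, and -0.033 within groups, so tumors of one group did not follow the markers here. Cxcl10 had r = 0.625 with Irf1, which became 0.158 without the 2 tumors farthest out and thus rested on them. Cxcr3 had r = 0.167 with the T cell markers, over a range of 1.56 to 3.58 CPM. Its r was larger with endothelial markers (0.576, and 0.325 without the 2 tumors farthest out) and with macrophage and monocyte markers (0.495). In the first experiment its r was 0.399 with endothelial markers, below the 0.531 with T cell markers. With Tbx21 the r of Cxcr3 was 0.173 in the first experiment and 0.169 in the second.

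**Figure D3:**
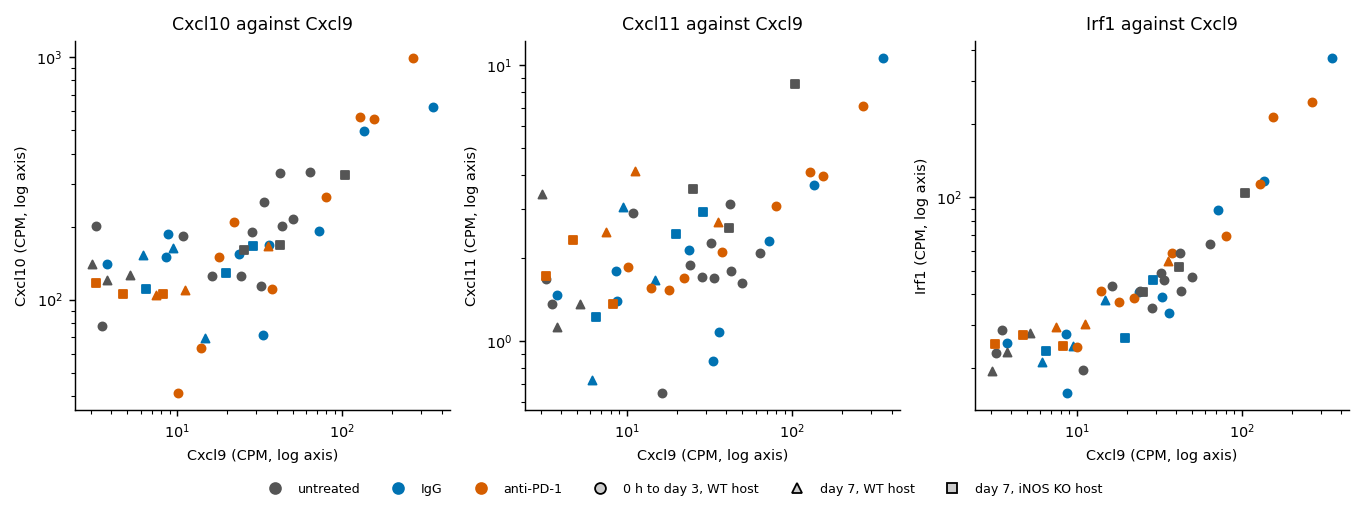
CPM of Cxcl10, Cxcl11 and Irf1 against CPM of Cxcl9 over the 48 tumors, with all axes logarithmic, colors for the treatment and shapes for the experiment and host. Irf1 follows Cxcl9 most tightly (r = 0.905 in the first and 0.916 in the second experiment), and Cxcl10 more loosely (0.732 and 0.626).

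**Figure D4:**
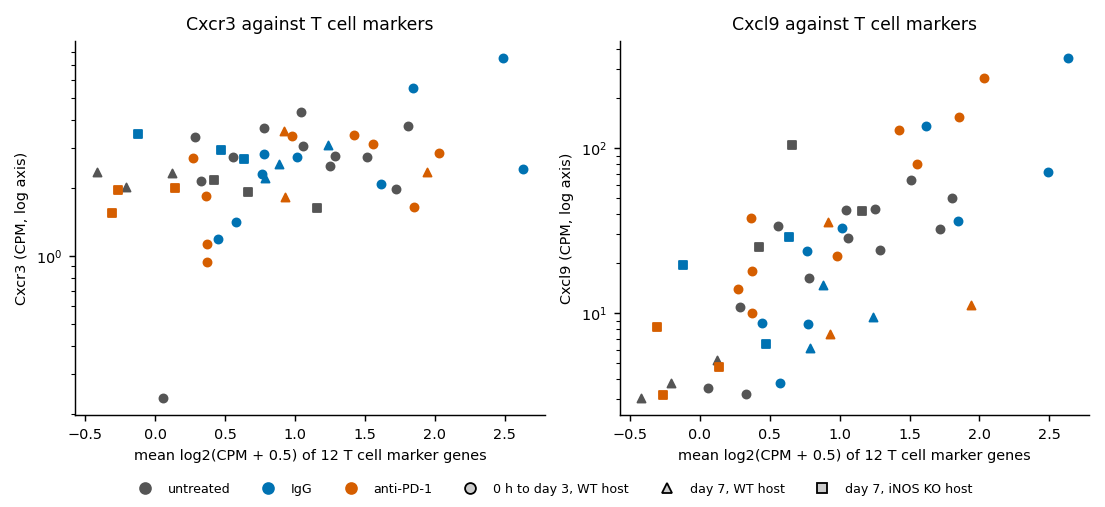
CPM of Cxcr3 and of Cxcl9 (log axes) against the mean log2(CPM + 0.5) of 12 T cell markers, with a point for each of the 48 tumors, colors for the treatment and shapes for the experiment and host. In the first experiment the r is 0.531 for Cxcr3 and 0.825 for Cxcl9, and in the second it is 0.167 and 0.442.

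Among 12939 protein-coding genes, those whose levels were most like a member in both experiments were ranked by the smaller of the 2 values of r. The r of the second experiment covers the untreated tumors used to choose the genes, so the ranking is a description. For Cxcl9 they were Gbp2 (0.951 and 0.976), Iigp1, Tgtp1, Gbp4 and Tgtp2, all above 0.93 in both, which are interferon-inducible GTPase genes. Tgtp1 and Tgtp2 are near-identical copies that could share reads. For Cxcl10 they were Irgm1 (0.839 and 0.855), Parp12, Igtp, Tapbpl and Bst2. For Cxcl11 they were Igtp (0.794 and 0.737), Gbp10, Gm12185, Ifi47 and Gm4841. The genes most like Cxcr3 were Itgal, the α chain of the leukocyte integrin LFA-1 (0.634 and 0.592), Sema4d, Tmem47, Rtl8c and Hist1h4k, with r no higher than 0.554 after the first.

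Regulators and partners of CXCR3 were a list of 9 genes, with Tbx21 and Eomes, the T-box factors that drive its expression in effector T cells and NK cells, Dpp4, the protease that trims its ligands, and atypical receptors among them. With edgeR 0 of 9 were called in any of the 15 comparisons. Tbx21 was at 0.313, 0.0622 and 0.130 CPM in anti-PD-1-treated KO tumors and at 1.08, 5.57 and 1.29 CPM in anti-PD-1-treated WT tumors, so the groups did not overlap. Its log2 fold change was -3.93 (SE 1.21, unadjusted p = 0.00413, adjusted p = 0.125 in edgeR), and the highest value belonged to WT tumor no. 3, the library with the largest background. The 2 regulators with an unadjusted p under 0.05 there were Tbx21 and Eomes, both lower in KO tumors, in a comparison where 32.3% of all genes reached that p and 17% separated in the direction of Tbx21.

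The other CXC chemokines and chemokine receptors gave no call in these comparisons either. Of 11 further CXC chemokine genes, 8 were tested in the first experiment and 11 in the second, with 0 called by edgeR. Cxcl16, the ligand of CXCR6, had 1.13 (SE 0.51, unadjusted p = 0.0353, adjusted p = 0.859 in edgeR) for IgG against untreated tumors on day 1. Of 17 further receptors, 16 and 17 were tested with 0 called. Ccr4, a receptor of regulatory and type 2 helper T cells, was at 0.436 to 0.874 CPM in the IgG tumors of that comparison and at 0 to 0.0270 CPM in the untreated ones (unadjusted p = 0.000132, adjusted p = 0.859 in edgeR). Xcr1, the receptor that marks cross-presenting dendritic cells, was at 0.0622 to 0.156 CPM in anti-PD-1-treated KO tumors and at 0.382 to 1.59 CPM in IgG-treated KO tumors (unadjusted p = 0.00585, adjusted p = 1 in edgeR), so like Cxcr3 it did not overlap there. Of all genes 12.6% separated in either direction in the comparison given for Ccr4, and 3.77% in the direction of Xcr1 in the other. The 8 genes next to the ligands on chromosome 5 had 0 called in any comparison, and Art3, which contains Cxcl10 and Cxcl11, had 0.18 (SE 0.31) for anti-PD-1 against untreated tumors at 6 h, where Cxcl10 had 1.75.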

How the data were processed

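RNA was measured in 48 tumors, 3 in each of 16 groups. According to the study's methods and the submitters' processing notes, strand-specific libraries were trimmed with cutadapt 1.8.1, aligned to mm10 with STAR 2.7.7a and quantified per gene of GENCODE vM21 with RSEM 1.3.0. The authors deposited whole-number counts per gene and library without normalization. The name of the deposited table refers to another counting program, and neither the counter nor its strand setting could be settled from the values. All 55450 gene identifiers matched vM21. No libraries of a group were copies of each other.

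The quasi-likelihood F-test of edgeR 4.0.16 (R 4.3.3) was run separately on the libraries of each experiment, after TMM scaling, with a coefficient for each group. The function filterByExpr, at a minimum count of 10, kept 26848 and 30837 genes, and 20 and 12 residual degrees of freedom remained. Adjusted p-values are those of Benjamini and Hochberg, taken over every gene tested in the comparison, and 0.05 was the threshold. DESeq2 1.42.0 was an alternative. The fit was run on simulated data with known changes. That check covered the size and direction of the fold changes and set no requirement on how many were called. Depth was 25574203 to 47687872 and 11625862 to 40959309 counts, and a count of 0 allows up to 3 counts, or 0.0688 to 0.105 CPM and 0.0763 to 0.197 CPM, for counting error only.

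The 4 members, the lists and the comparisons were chosen with earlier results of these data known. Of the listed genes, those named are Ifng, Irf1 and Tbx21, genes past the threshold, and the 3 largest changes of a list. Art3 was named for its overlap with members, and Eomes and Klre1 after their values were seen. A gene that the rule also names is not reported here. The genes most like a member were ranked by the smaller r of the experiments among protein-coding genes with a mean of at least 1 CPM in each. Correlations used log2(CPM + 0.5) and 100000 permutations. Background was estimated as counts per kb of exon on 1502 sensory receptor genes and, as alternatives, was subtracted or added as a covariate. Other alternatives were DESeq2 size factors, no filter, a replicate block, only the groups compared, each library left out in turn and the 3 libraries with most background left out. Python 3.11.15, numpy 2.4.6, pandas 2.3.3 and matplotlib 3.10.9 were used for tables and figures.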

Additional observations from a re-analysis of the deposited data

How the results depend on the processing

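Values below are log2 fold changes. Of 480 values with 1 library left out, 426 kept their direction and side of the threshold, 52 changed sign and 2 untested ones moved beyond the spread between replicates. Of 472 values under the other settings, 446 kept both, 21 changed sign and 5 passed the threshold. The causes of these changes were not tested. Values of untreated KO against WT had no threshold and counted as kept if they moved by less than the spread between replicates. DESeq2 values without an adjusted p counted as not passing the threshold.

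The 5 that passed were all for Cxcl9. Without the filter, anti-PD-1 against untreated tumors at 6 h gave 3.43 (adjusted p = 0.0207 in edgeR), anti-PD-1 against IgG in KO hosts -1.78 (5.56e-08), KO against WT under anti-PD-1 -1.68 (5.13e-08) and the interaction -2.58 (5.66e-09). The DESeq2 Wald test gave -1.80 (adjusted p = 0.0439) for KO against WT under anti-PD-1. Over all genes, the comparisons of the first experiment had 0 calls in edgeR, 0 to 397 without the filter, 1 to 217 with DESeq2 and 0 to 60 with 1 library left out (60 for untreated day 3 against 0 h without untreated 0 h no. 1). In the second, edgeR called 0 to 23, no filter gave 78 to 5164, DESeq2 19 to 3034, a replicate block 0 to 44, the fit of only the groups compared 0 to 714, and leaving out 1 library 0 to 8782. Without WT anti-PD-1 no. 2 the counts were 2271 for anti-PD-1 against IgG in WT hosts, 4959 for KO against WT under anti-PD-1 and 8782 over the mean of both antibodies, and the last was 1846, 609 and 214 without WT IgG nos. 1, 2 and 3, against 23 with all libraries. DESeq2's size factors, the covariate and the subtraction gave 0 calls in both experiments. No member was called with any 1 library left out.

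Replicate numbers did not pair the tumors. The median correlation of deviations of same-numbered libraries was -0.027 over 65 pairs and -0.019 over 36 pairs. With a replicate block no call of a member changed, but signs did, to -0.034 for Cxcl11 in anti-PD-1 against IgG on day 3, to -0.025, -0.031 and -0.045 for Cxcl9, Cxcl10 and Cxcl11 over the mean of the 3 times, and to 0.087 for Cxcr3 on day 7 in WT hosts. With the sensory receptor level as a covariate, the mean over 3 times became -0.19 for Cxcl9 and -0.14 for Cxcl10, KO against WT under IgG -0.18 for Cxcl10 and -0.034 for Cxcr3, and untreated KO against WT 0.058 for Cxcr3. For IgG against untreated tumors at 6 h, Cxcl11 had -0.016 without the filter and -0.029 with background subtracted.

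For anti-PD-1 against IgG in WT hosts on day 7, Cxcl10 became 0.038 with DESeq2's size factors and with its Wald test, 0.29 with the covariate, 0.12 with background subtracted and 0.35 without the 3 libraries with most background. Cxcr3 became 0.044 with the size factors, 0.064 with the Wald test, 0.21 with the covariate and 0.44 without those 3 libraries.

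With each library left out in turn, ranges crossed 0 as follows. Anti-PD-1 against IgG ran from -1.47 to 1.12 for Cxcl11 on day 1 (sign turned by IgG no. 4), and on day 3 from -0.28 to 2.17 for Cxcl9, -0.080 to 1.21 for Cxcl10 and -0.16 to 0.55 for Cxcl11 (all turned by anti-PD-1 no. 3). Over the mean of the 3 times it ran from -0.33 to 1.18 for Cxcl9, -0.18 to 0.61 for Cxcl10 and -0.083 to 0.80 for Cxcl11 (all turned by anti-PD-1 6 h no. 5 and day 3 no. 3, Cxcl9 and Cxcl10 also by anti-PD-1 day 1 no. 4, Cxcl9 and Cxcl11 by IgG day 1 nos. 2 and 6, and Cxcl9 by IgG 6 h nos. 2 and 6). Anti-PD-1 against untreated tumors at 6 h ran from -0.45 to 0.18 for Cxcr3 (turned by anti-PD-1 no. 3 and untreated no. 4). IgG against untreated tumors ran at 6 h from -1.13 to 2.83 for Cxcl9, -0.11 to 0.97 for Cxcl10 and -0.64 to 0.24 for Cxcl11 (all turned by IgG no. 1, Cxcl11 also by untreated nos. 1 and 2), on day 1 from -0.13 to 1.59 for Cxcl10 and -0.36 to 2.23 for Cxcl11 (turned by IgG no. 4), and on day 3 from -1.49 to 0.15 for Cxcl9 (IgG no. 5 and untreated no. 2), -0.30 to 0.14 for Cxcl11 (untreated no. 1) and -0.43 to 0.66 for Cxcr3 (IgG no. 3). Untreated tumors of day 3 against 0 h ran from -0.14 to 0.44 for Cxcl9 (turned by day 3 no. 2).

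On day 7, anti-PD-1 against IgG in WT hosts ran from -0.14 to 1.20 for Cxcl9 (turned by anti-PD-1 no. 2), -0.35 to 0.18 for Cxcl10 and -0.35 to 0.13 for Cxcr3 (both turned by IgG no. 1 and anti-PD-1 nos. 3 and 4, Cxcl10 also by IgG no. 2). KO against WT ran under IgG from -0.22 to 0.31 for Cxcl10 (WT no. 3 and KO no. 3) and -0.084 to 0.93 for Cxcl11 (WT no. 2), and under anti-PD-1 from -0.32 to 0.084 for Cxcl10 (turned by WT no. 2). Over the mean of both it ran from -0.68 to 0.078 for Cxcl9, -0.20 to 0.085 for Cxcl10 and -0.26 to 0.052 for Cxcr3 (each turned by WT anti-PD-1 no. 2, Cxcl10 also by KO IgG no. 2 and WT IgG nos. 1 and 2) and -0.41 to 0.10 for Cxcl11 (WT IgG no. 1). The interaction ran from -0.48 to 0.050 for Cxcl10 (turned by WT IgG no. 3). Untreated KO against WT ran from 3.04 to 4.19 for Cxcl9 and 0.34 to 0.94 for Cxcl10. Of the 5 genes most like each member, a pseudocount of 0.1 CPM kept 5 for Cxcl9, 5 for Cxcl10, 4 for Cxcl11 and 4 for Cxcr3. Without the 3 libraries, 1 anti-PD-1-treated WT tumor remained and was assumed to vary like the other groups. With 3 tumors a group and Cxcr3 and Cxcl11 at 9 to 440 counts, small differences in these genes were not detectable. Between single groups of the first experiment the SE of Cxcl9 was larger than theirs, at 1.16 to 1.28. Even its log2 fold change of 3.44 was not called by edgeR, so large differences could be missed for Cxcl9.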
